A study of Mus musculus with 66 samples.

Results

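Gm42418, Gm26917 and Gm23935 are 3 of the 39179 genes in the deposited count tables of a mouse bladder cancer study. They were taken by name after the Ensembl identifiers of the tables had been matched to mouse symbols, and all 3 were found. The genes were chosen by their large shares of the counts in these same libraries. Their shares and the differences between shares are therefore given as a description, with no test.

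The study set low-input RNA-seq kits against one another on BC57, a mouse bladder cancer cell line grown in serum-containing DMEM, and on normal urothelium removed from 9 mice. The cell pellet and the urothelium of each mouse were each split into 2 portions, which gave a formalin-fixed paraffin-embedded (FFPE) portion, kept in buffered formalin for 24 hours, and a fresh-frozen (FF) portion. FFPE RNA was extracted with RNeasy FFPE and FF RNA with RNeasy mini, so that fixation and extraction kit cannot be told apart. The labels state neither the strain and age of the mice nor how their tissue was combined. BC57 is a single cultured line, and no genetic change is named for it.

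The 66 libraries fell into 22 groups of 3. The SMARTer Pico kit, which copies total RNA by template switching and then depletes ribosomal RNA, was run at 250 pg and 2 ng of RNA on BC57 FFPE, BC57 FF, urothelium FFPE and urothelium FF. The Ovation SoLo kit, which primes total RNA at random and cuts ribosomal cDNA with a targeted step, was run at 50 pg, 250 pg and 2 ng on the same 4 kinds of RNA. A poly(A) selection kit was run at 1 µg on BC57 FF and urothelium FF. Total counts per library lay between 651879 and 7152648 for SMARTer, between 928722 and 4706030 for Ovation and between 18499591 and 36187226 for poly(A). Repeat libraries of a group are not described as separate cultures or animals, so the spread between them may be technical. The third urothelium FFPE libraries of SMARTer, at both inputs, stood apart from their fellow libraries in the share of each of the 3 genes, and results that rest on them are given with and without them. They also had more genes with a count, 30912 against 20100 and 19739 at 2 ng and 19403 against 15768 and 14186 at 250 pg. The third BC57 SMARTer FFPE library at 2 ng had 26973 against 18794 and 18855. The third urothelium Ovation FF library at 250 pg had 13253 against 18223 and 17676. Both were kept in the results.

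Ribosomal RNA is transcribed by RNA polymerase I as a long precursor from tandem repeats. In each repeat an external transcribed spacer stands upstream of the small-subunit rRNA, and the precursor is cut and trimmed in the nucleolus before ribosomes are assembled. Ribosomal RNA makes up most of the RNA of a cell, which is why RNA-seq kits select poly(A) tails or remove ribosomal sequence.

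Gm42418 (ENSMUSG00000098178) is annotated as a lincRNA of 1831 bases, a single exon on the plus strand of chromosome 17, at chr17:39846958-39848788 of GRCm38. It overlaps by position the RefSeq gene Rn18s-rs5, a ribosomal-repeat copy at chr17:39846354-39848202, and runs 586 bases past its end. Gm26917 (ENSMUSG00000097971), a lincRNA of 3329 bases at chr17:39843013-39846341 on the same strand, ends 12 bases before Rn18s-rs5 and 616 bases before Gm42418. Gm23935 (ENSMUSG00000076258) is annotated as a miRNA of 57 bases at chr16:11144125-11144181 on the plus strand, inside an intron of the minus-strand gene Zc3h7a and 999 bases from its nearest exon. Gm23935 is shorter than the 100-base reads. The 3 transcripts are rich in G and C, at 60.2% in Gm42418, 69.1% in Gm26917 and 73.7% in Gm23935. Of 141767 annotated transcripts, 5.04% reach the GC content of Gm42418, 0.25% that of Gm26917 and 0.07% that of Gm23935.

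The annotation ties Gm42418 to a ribosomal repeat by overlap and Gm26917 by position alone. No transcript in the annotation used here ties Gm23935 to ribosomal RNA. Minus-strand genes CT010467.1, of rRNA type, and AY036118 overlap Gm42418 and are absent from the deposited count tables. The strand setting of the counting is not given in the sources used here, so reads of Gm42418 and of these antisense genes cannot be told apart.

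The first 120 bases of Gm42418 and both ends of Gm26917 are printed to show the ribosomal sequence in the one and the GC-rich sequence in the other, from the GENCODE M21 transcripts on GRCm38, 5′ to 3′ on the plus strand. They lie at chr17:39846958-39847077 for Gm42418, at chr17:39843013-39843132 for the start of Gm26917 and at chr17:39846222-39846341 for its end. The capitals in Gm42418, bases 13 to 31, mark the loop of small-subunit rRNA that is conserved across life and that universal primers are made against. The Gm26917 end holds 76.7% G and C and its start 67.5%.
Gm42418 start: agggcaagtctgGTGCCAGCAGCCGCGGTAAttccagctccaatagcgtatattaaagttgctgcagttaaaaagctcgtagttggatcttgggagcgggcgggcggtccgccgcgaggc
Gm26917 start: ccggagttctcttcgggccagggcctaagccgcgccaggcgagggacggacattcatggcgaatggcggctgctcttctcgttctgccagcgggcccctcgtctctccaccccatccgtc
Gm26917 end: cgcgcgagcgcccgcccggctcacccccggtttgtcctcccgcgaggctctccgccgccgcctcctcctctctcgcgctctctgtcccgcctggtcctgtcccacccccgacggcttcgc

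Gm23935 has near-identical copies elsewhere in the genome, all annotated as miRNA genes. Gm24270 at chr9:56223715-56223771 on the minus strand and Gm24245 at chr4:139338304-139338360 on the plus strand carry the same 57 bases. Gm24187 at chr13:9834469-9834525 on the minus strand differs by G11A, counted from 1 at the 5′ end of Gm23935. Gm25911 at chr1:167340369-167340424 on the minus strand differs by G14A and a deletion at base 34. The copies are shown because reads can be split among them by the counting, and capitals mark the substituted bases.
Gm23935, Gm24270 and Gm24245: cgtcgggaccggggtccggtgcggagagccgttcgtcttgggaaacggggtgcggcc
Gm24187: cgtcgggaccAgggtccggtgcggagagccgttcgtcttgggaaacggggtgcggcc
Gm25911: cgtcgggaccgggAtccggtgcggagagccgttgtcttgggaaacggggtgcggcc

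The 3 genes together took 2.41% to 21.1% of all counts in SMARTer libraries (median 16.7%, n = 24), 3.16% to 6.13% in Ovation libraries (median 4.02%, n = 36) and 0.104% to 0.205% in poly(A) libraries (median 0.154%, n = 6). Without the third urothelium FFPE libraries the SMARTer range was 10.2% to 21.1% (median 17%, n = 22). In SMARTer libraries Gm23935 was the gene with the most counts in 22 of 24 libraries. In Ovation libraries Gm42418 was first in 23 of 36 and never below second place. In poly(A) libraries none of the 3 was among the top 10 genes, and their median ranks were 241 for Gm42418, 8423 for Gm26917 and 191 for Gm23935. The 95% Wilson interval of a single share reached to either side by at most 6.88% of the share in SMARTer, 4.65% in Ovation and 20% in poly(A), where Gm26917 had as few as 97 counts. These intervals cover counting error only.

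**Figure D1:**
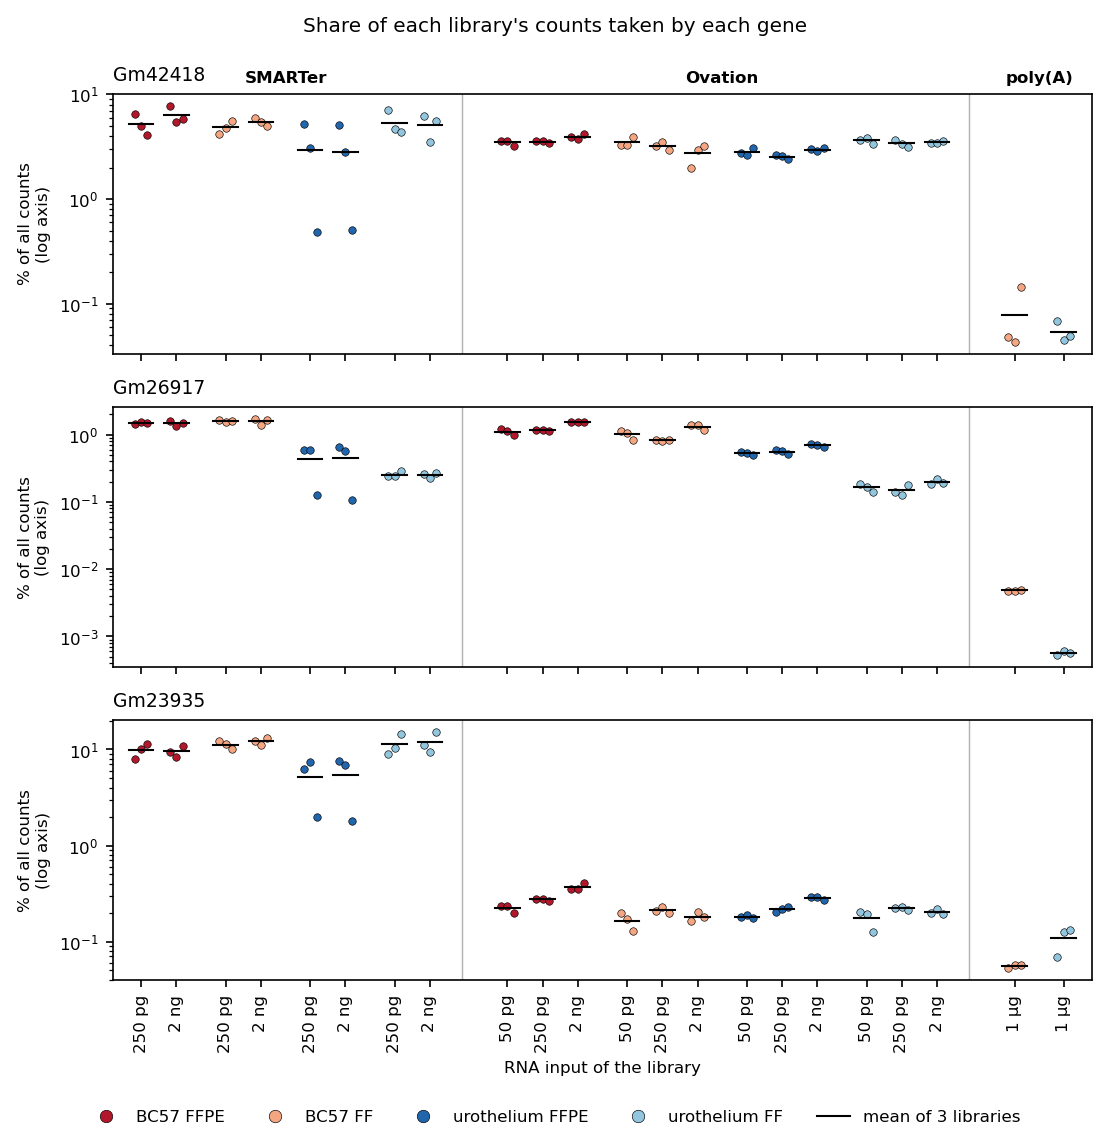
Share of all counts (%, log axis) of Gm42418, Gm26917 and Gm23935 in each of the 66 libraries (dots), with the mean of each group of 3 (line). Kits run left to right as SMARTer, Ovation and poly(A); Gm23935 lies between 1.80% and 15.3% in SMARTer (from 6.19% without the third urothelium FFPE libraries) against 0.127% and 0.412% in Ovation, and Gm26917 is higher in BC57 than in urothelium within each kit.

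SMARTer and Ovation differed mainly in Gm23935. At 2 ng of BC57 FF RNA, Gm23935 took 12.3%, 11.1% and 13.3% of counts in SMARTer, against 0.163%, 0.202% and 0.179% in Ovation. At 2 ng of urothelium FF RNA it took 11.1%, 9.40% and 15.3% in SMARTer, against 0.200%, 0.217% and 0.192% in Ovation. The SMARTer libraries were all far above the Ovation libraries. The ratio of mean shares lay between 19.1-fold and 67.6-fold over the 8 matched comparisons, and the libraries did not overlap in any of the 8, where 9.77% of genes in these comparisons were higher in SMARTer without overlap. The lowest ratio belonged to urothelium FFPE at 2 ng, where 7.68%, 6.84% and 1.80% stood against 0.292%, 0.288% and 0.274%. Without the third SMARTer library it was 25.5-fold, and at 250 pg it was 31.4-fold in place of 24.0-fold.

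Gm42418 differed far less between these kits. At 2 ng of BC57 FF RNA it took 5.96%, 5.47% and 5.0% in SMARTer, against 1.99%, 2.94% and 3.25% in Ovation, and the libraries did not overlap. Over the 8 comparisons its ratio lay between 0.946-fold and 2.01-fold, with SMARTer higher without overlap in 5, beside 9.77% of genes. Without the third urothelium FFPE libraries it lay between 1.33-fold and 2.01-fold, with SMARTer higher without overlap in 6. In urothelium FFPE RNA the ratio of Gm42418 turned on single libraries, at 0.946-fold for 2 ng and 1.15-fold for 250 pg with all libraries, 1.33-fold and 1.63-fold without the third SMARTer library, and 0.563-fold and 0.693-fold without the first. Gm26917 lay between 0.648-fold and 1.92-fold, also with SMARTer higher without overlap in 5. Without the third urothelium FFPE libraries its lowest ratio was 0.895-fold, at 2 ng, and the count was again 5. At 250 pg of urothelium FFPE RNA its ratio was 0.772-fold with the third SMARTer library and 1.05-fold without it, overlapping in both. The 3 overlapping comparisons of Gm26917 were all of FFPE RNA, BC57 at 2 ng and urothelium at both inputs. As levels per length, in counts per 1000000 counts of the library (CPM) and per kb of exon, the median was 27503 for Gm42418 and 3018 for Gm26917 in SMARTer, against 18243 and 2287 in Ovation.

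The copies of Gm23935 were highest in SMARTer, as Gm23935 was, each at its own level, while the host and neighbour genes had like medians in the 3 kits. The median level of Gm23935 was 100903 CPM in SMARTer, 2087 in Ovation and 628 in poly(A). Gm24270, identical in sequence, had medians of 4219 CPM in SMARTer, 50.6 in Ovation and 27.3 in poly(A). Gm24245, also identical, had medians of 81.0, 1.76 and 0.242 CPM in the same order of kits. Identical sequences were thus listed at levels far apart, and how the authors' counting placed reads that match several loci is not given in the sources used here.

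Gm24187, with 1 substituted base, had medians of 2192 CPM in SMARTer, 30.8 in Ovation and 92.1 in poly(A). Gm25911 had 813, 4.89 and 15.6 CPM. The medians of both were higher in poly(A) than in Ovation, unlike those of Gm24270 and Gm23935. Zc3h7a, the zinc finger gene whose intron holds Gm23935, had 118 CPM in SMARTer, 128 in Ovation and 127 in poly(A), and its neighbour Txndc11, a thioredoxin-domain gene, had 36.9, 52.1 and 48.2. The sixth member of the copies, Gm23388 on chromosome 8, had 14 counts over all libraries.

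**Figure D2:**
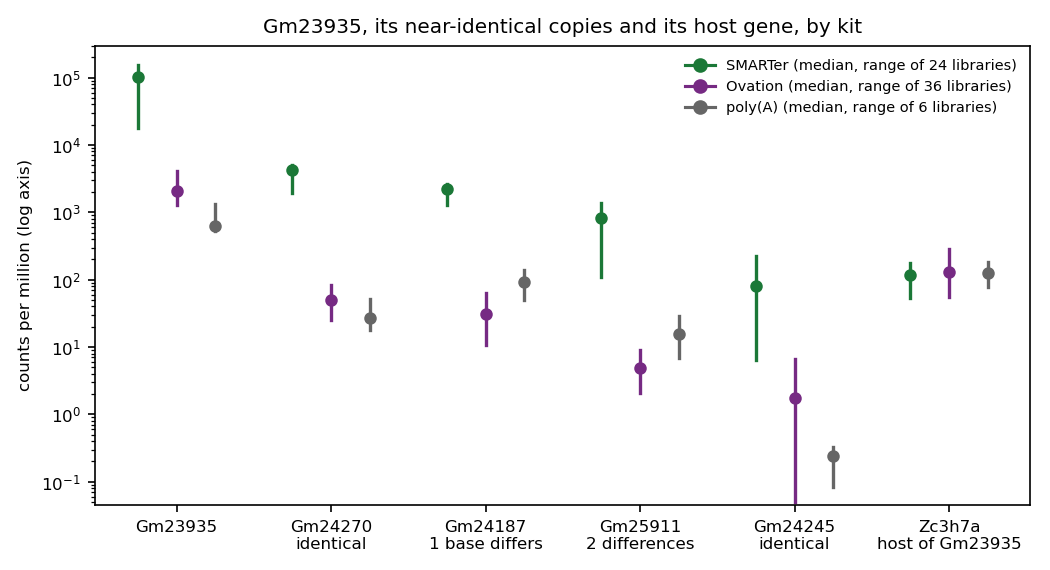
CPM (log axis) of Gm23935, its copies and the host gene Zc3h7a by kit, as the median (point) and range (line) over 24 SMARTer, 36 Ovation and 6 poly(A) libraries. Gm23935 and its copies are highest in SMARTer, whereas Zc3h7a has medians of 118, 128 and 127; Gm24245 reaches 0 in Ovation, drawn to the axis floor, and Gm23388 with 14 counts is left out.

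Among SMARTer libraries the balance of Gm23935 and Gm42418 moved with the library code in the sample descriptions. Codes 1 to 8 had 1.88 to 4.12 Gm23935 counts per Gm42418 count (median 2.87, n = 8), and 1.88 to 3.31 (median 2.76, n = 6) without the third urothelium FFPE libraries, which both lie here. Codes 9 to 16 had 1.18 to 2.06 (median 1.39, n = 8), and codes 17 to 24 had 1.55 to 2.65 (median 2.28, n = 8). Each run of 8 codes holds 1 library of each of the 8 SMARTer groups, so the runs are balanced over cell sample, fixation and input. Within each run the codes follow the groups, with BC57 and urothelium in turn and FF libraries before FFPE libraries. What the codes stand for is not given in the sources used here, and their part in the shares was not tested. Ovation libraries had 0.0327 to 0.101 Gm23935 counts per Gm42418 count, all below every SMARTer library.

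**Figure D3:**
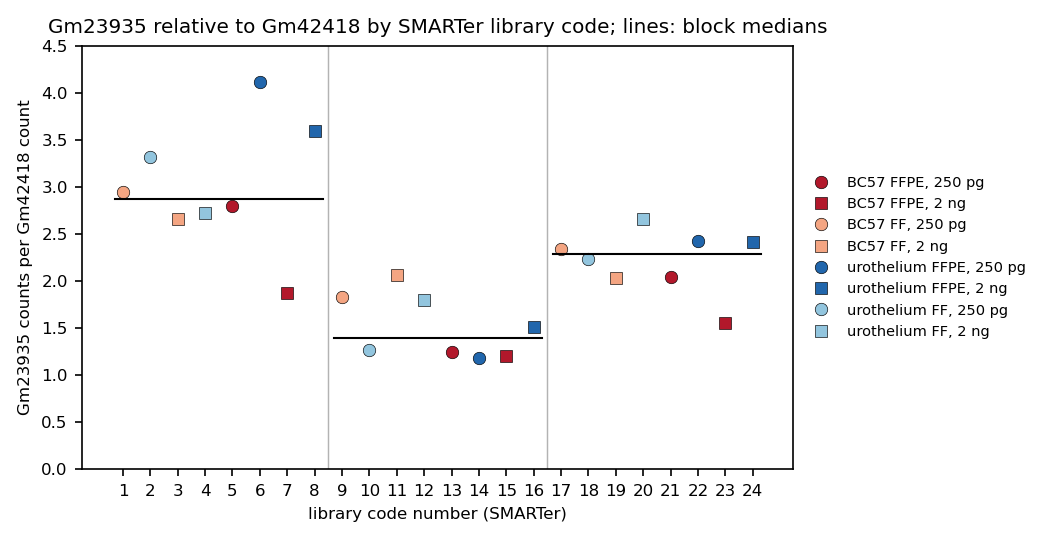
Gm23935 counts per Gm42418 count in each of the 24 SMARTer libraries (points) against library code 1 to 24, with the median of each run of 8 codes (line). The medians are 2.87, 1.39 and 2.28, and the highest point, 4.12, is the third urothelium FFPE library at 250 pg.

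Without poly(A) selection all 3 genes were higher, and Gm26917 stood out most. In BC57 FF RNA, Gm26917 took 1.72%, 1.41% and 1.64% of counts in SMARTer at 2 ng and 1.41%, 1.37% and 1.17% in Ovation at 2 ng, against 0.00481%, 0.00473% and 0.00499% in poly(A) at 1 µg. In urothelium FF RNA it took 0.258%, 0.227% and 0.271% in SMARTer and 0.181%, 0.217% and 0.194% in Ovation, against 0.000524%, 0.000599% and 0.000571% in poly(A). The ratio of means to poly(A) was 328-fold in BC57 and 447-fold in urothelium for SMARTer, and 271-fold and 350-fold for Ovation. Inputs differ between these kits, so kit and input cannot be told apart here.

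Gm42418 was 70.1-fold higher in BC57 and 94.7-fold higher in urothelium in SMARTer than in poly(A), and 34.9-fold and 64.9-fold higher in Ovation. Its poly(A) shares were 0.0476%, 0.0427% and 0.144% in BC57 and 0.0677%, 0.0454% and 0.0486% in urothelium. The third BC57 library was above all other poly(A) libraries. Without it the ratios for BC57 were 121-fold in SMARTer and 60.3-fold in Ovation, so that in SMARTer the ratio for BC57 was above that for urothelium. Gm23935 averaged 12.2% ± 1.08 in SMARTer against 0.0552% ± 0.00231 in poly(A) in BC57, and 11.9% ± 3.02 against 0.109% ± 0.0345 in urothelium (SD, n = 3 each). In Ovation it was 3.28-fold and 1.87-fold higher than in poly(A). In all 4 comparisons each of the 3 genes was higher without overlap, where 17.2% of genes were.

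BC57 cells had more Gm26917 than urothelium in every kit, input and preservation. In poly(A) libraries the shares were 0.00481%, 0.00473% and 0.00499% in BC57 against 0.000524%, 0.000599% and 0.000571% in urothelium, an 8.58-fold ratio of means. At 2 ng FF in Ovation they were 1.41%, 1.37% and 1.17% against 0.181%, 0.217% and 0.194%, 6.66-fold. At 2 ng FF in SMARTer they were 1.72%, 1.41% and 1.64% against 0.258%, 0.227% and 0.271%, 6.30-fold. Every BC57 library was above every urothelium library in these 3 comparisons.

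In FFPE RNA the ratios of Gm26917 were smaller, and the difference from FF RNA was not tested. At 2 ng in Ovation the shares were 1.56%, 1.53% and 1.56% in BC57 against 0.721%, 0.698% and 0.658% in urothelium, 2.24-fold. At 2 ng in SMARTer they were 1.58%, 1.35% and 1.49% against 0.660%, 0.578% and 0.107%, 3.28-fold, and 2.38-fold without the third urothelium library. At 250 pg the SMARTer ratio was 3.43-fold with that library and 2.53-fold without it. Ovation ratios lay between 5.53-fold and 6.66-fold in FF and between 2.07-fold and 2.24-fold in FFPE RNA. BC57 was higher without overlap in all 11 comparisons, where 25.5% of genes were higher and 30.8% lower in BC57 in that way. Within each run of 8 library codes, BC57 was higher in 12 of 12 SMARTer pairs.

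Gm42418 and Gm23935 held no common direction between BC57 and urothelium. Over the 11 comparisons Gm42418 was higher in BC57 without overlap in 4 and lower in 1. Gm23935 was higher in 5 and lower in 1. Of all genes, 25.5% were higher and 30.8% lower in that way. In the 3 Ovation FFPE comparisons both were higher in BC57 without overlap, Gm42418 by 1.23-fold to 1.39-fold and Gm23935 by 1.22-fold to 1.31-fold. In Ovation FF RNA at 2 ng Gm42418 took 1.99%, 2.94% and 3.25% in BC57 against 3.44%, 3.44% and 3.62% in urothelium, all BC57 libraries below, and the other inputs overlapped. In SMARTer FF RNA both genes overlapped at both inputs. In SMARTer FFPE RNA Gm23935 was higher in BC57 without overlap, 1.76-fold at 2 ng and 1.89-fold at 250 pg, and 1.32-fold and 1.45-fold without the third urothelium libraries. Gm42418 was 2.26-fold at 2 ng, without overlap, 1.6-fold without the third urothelium library and 3.8-fold without the first. At 250 pg it was 1.76-fold with overlap, 1.24-fold without the third urothelium library and 2.93-fold without the first. In poly(A) libraries Gm23935 took 0.0525%, 0.0565% and 0.0566% in BC57 against 0.0689%, 0.126% and 0.131% in urothelium, without overlap. Poly(A) Gm42418 overlapped, at 1.45-fold, and at 0.838-fold without the third BC57 library.

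Cell type markers moved with the same comparison. The urothelial list of 8 genes (uroplakins, keratins Krt5 and Krt20, and Trp63) summed to 177 to 363 CPM in BC57 and to 3514 to 10735 CPM in urothelium outside the third SMARTer FFPE libraries, which had 807 and 987. The fibroblast list of 6 genes summed to 5.69 to 52 CPM in BC57. In urothelium it summed to 7549 to 13796 CPM outside the third SMARTer FFPE libraries, which had 2997 and 3240. The urothelium RNA thus also held stromal transcripts. Smooth muscle genes summed to 1.08 to 32.5 against 146 to 334 CPM, endothelial genes to 0 to 22.2 against 129 to 229, immune genes to 0 to 40.3 against 95.1 to 205, and erythroid genes to 0 to 16.9 against 0.345 to 47.5. Without the third SMARTer FFPE libraries the immune range in urothelium was 96.1 to 195 CPM. Over all BC57 libraries Hbb-bt was the one listed marker at 0. The part of cell composition in the shares of the 3 genes was not tested, and in bulk RNA fewer cells of a type and less RNA per cell cannot be told apart.

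Formalin fixation went with more Gm26917 in urothelium. In Ovation at 50 pg the shares were 0.551%, 0.540% and 0.504% in FFPE against 0.186%, 0.167% and 0.140% in FF, 3.23-fold. At 250 pg they were 0.591%, 0.578% and 0.510% in FFPE against 0.140%, 0.129% and 0.180% in FF, 3.75-fold. At 2 ng they were 0.721%, 0.698% and 0.658% in FFPE against 0.181%, 0.217% and 0.194% in FF, 3.51-fold. The FFPE libraries were above the FF libraries at each input, where 14.6% of genes were higher in FFPE without overlap. Marker sums moved with fixation in these 2 ng libraries, at 4766 to 4955 CPM in FFPE against 6410 to 6839 CPM in FF for the urothelial list and at 12935 to 13241 against 9406 to 10002 for the fibroblast list. Smooth muscle genes summed to 213 to 220 CPM in FFPE against 169 to 209 CPM in FF and erythroid genes to 10.6 to 13.6 against 4.36 to 6.69, both higher in FFPE without overlap. Endothelial genes summed to 166 to 181 CPM in FFPE against 185 to 224 CPM in FF, lower in FFPE without overlap, and immune genes to 116 to 120 against 107 to 117, with overlap. The part of cell composition in this difference was not tested.

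In the same Ovation urothelium libraries Gm42418 was lower in FFPE RNA, at 0.781-fold, 0.747-fold and 0.847-fold for 50 pg, 250 pg and 2 ng. Its 2 ng shares were 2.99%, 2.86% and 3.05% in FFPE against 3.44%, 3.44% and 3.62% in FF. It did not overlap at any of the 3 inputs, where 13.9% of genes were lower in FFPE without overlap over all 10 comparisons of FFPE with FF. Gm23935 was higher without overlap at 2 ng only, 1.4-fold, and overlapped at 50 pg and 250 pg, at 1.03-fold and 0.975-fold.

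SMARTer urothelium libraries gave the same order for Gm26917 once the third libraries were set aside. At 2 ng the shares were 0.660%, 0.578% and 0.107% in FFPE against 0.258%, 0.227% and 0.271% in FF, and at 250 pg they were 0.582%, 0.590% and 0.124% against 0.240%, 0.239% and 0.284%. The third FFPE library was below all FF libraries at both inputs. The ratio was 1.78-fold at 2 ng and 1.70-fold at 250 pg with it, and 2.46-fold and 2.31-fold without it. The third FFPE libraries had 780106 counts at 2 ng and 651879 at 250 pg, and the 3 genes together took 2.41% and 2.60% of them.

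Gm23935 was lower in SMARTer FFPE urothelium, at 0.456-fold for 2 ng and 0.460-fold for 250 pg, both without overlap, where 7.28% of genes were lower in that way. Without the third libraries it was 0.608-fold and 0.601-fold, again with no overlap. Gm42418 overlapped, at 0.549-fold for 2 ng and 0.544-fold for 250 pg with the third libraries and at 0.775-fold and 0.772-fold without them, while without the first FFPE libraries it was 0.327-fold and 0.328-fold, lower without overlap. Paired within runs of library codes, Gm42418 was lower in FFPE in 6 of 6 pairs, with log2 ratios of -3.48 to -0.28, and of -0.62 to -0.28 in the 4 pairs outside the third libraries. Gm23935 was also lower in 6 of 6 pairs.

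The ratio of Gm26917 to Gm42418, each per length, was higher in urothelium FFPE RNA in both kits. In Ovation at 2 ng, Gm26917 per kb was 13.3%, 13.4% and 11.9% of Gm42418 per kb in FFPE, against 2.90%, 3.48% and 2.94% in FF. In SMARTer at 2 ng it was 7.15%, 11.2% and 11.7% in FFPE, against 2.31%, 3.52% and 2.66% in FF. FFPE and FF libraries of urothelium did not overlap in this ratio in any of 5 comparisons, with ratios of means of 4.14-fold to 4.97-fold in Ovation and 3.54-fold to 3.74-fold in SMARTer. Without the third libraries the SMARTer values were 3.25-fold at 2 ng and 3.04-fold at 250 pg. Paired within runs of library codes, the ratio was higher in FFPE in 6 of 6 pairs, while Gm26917 alone was higher in 4 of 6.

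**Figure D4:**
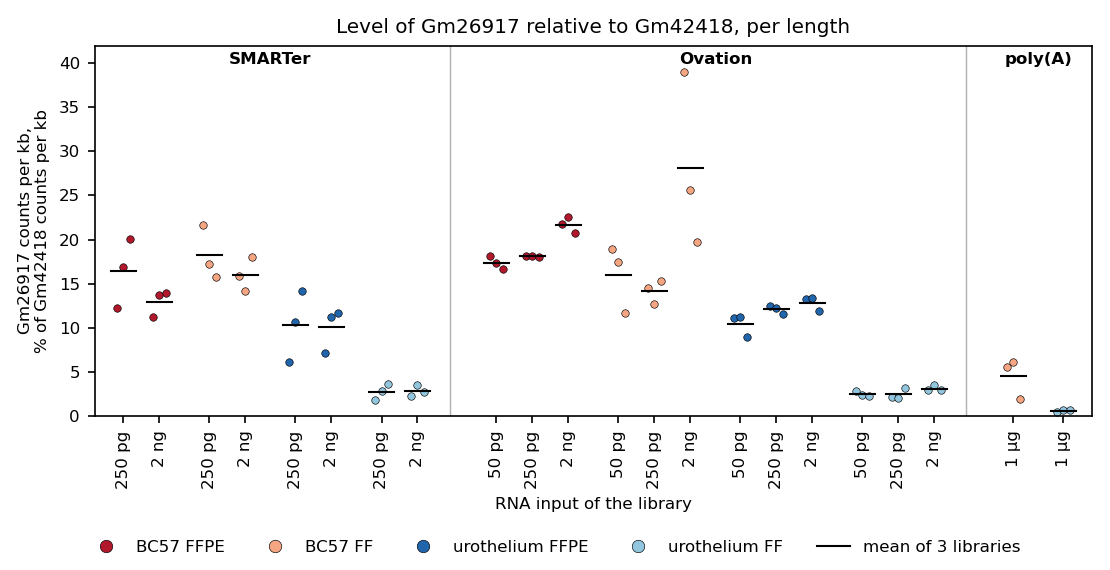
Gm26917 counts per kb as a percentage of Gm42418 counts per kb in each library (dots), by kit, cell sample and preservation. In SMARTer, urothelium FFPE libraries lie between 6.09% and 14.2% and urothelium FF libraries between 1.85% and 3.59%, and the highest dot, 39%, is the first BC57 FF library of Ovation at 2 ng.

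In BC57 cells, FFPE and FF RNA lay closer in Gm26917, although the difference from urothelium was not tested. In Ovation at 2 ng, Gm26917 took 1.56%, 1.53% and 1.56% in BC57 FFPE against 1.41%, 1.37% and 1.17% in BC57 FF, 1.18-fold. It overlapped at 50 pg (1.1-fold) and was higher in FFPE without overlap at 250 pg (1.41-fold) and at 2 ng, where 11.9% of genes were higher without overlap. In SMARTer it was 0.927-fold at 2 ng and 0.937-fold at 250 pg, overlapping at both. The ratio of Gm26917 to Gm42418 per length had no common direction in BC57. In Ovation at 2 ng it was 21.7%, 22.6% and 20.7% in FFPE against 39%, 25.6% and 19.8% in FF, and it overlapped. The first FF library, with the lowest Gm42418 share of all Ovation libraries at 1.99%, was the high one. In Ovation it was 1.28-fold higher in FFPE at 250 pg without overlap, at means of 18.1% in FFPE and 14.2% in FF, and 1.09-fold at 50 pg with overlap. In SMARTer it was 0.809-fold at 2 ng, lower without overlap at means of 13% in FFPE and 16% in FF, and 0.901-fold at 250 pg with overlap. Paired within runs of library codes, the ratio was lower in BC57 FFPE in 6 of 6 SMARTer pairs.

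In BC57, Gm23935 was the gene that moved at every Ovation input. At 2 ng it took 0.356%, 0.350% and 0.412% in FFPE against 0.163%, 0.202% and 0.179% in FF, 2.06-fold. The ratios were 1.34-fold at 50 pg, 1.29-fold at 250 pg and 2.06-fold at 2 ng, with no overlap at any of the 3. Over these comparisons 11.9% of genes were higher in FFPE without overlap. In SMARTer it was lower, at 9.39%, 8.36% and 11% in FFPE against 12.3%, 11.1% and 13.3% in FF at 2 ng. That is 0.783-fold without overlap, where 13.4% of genes were lower in that way, and at 250 pg it was 0.875-fold with overlap. Gm42418 at 2 ng in Ovation took 3.95%, 3.74% and 4.15% in FFPE against 1.99%, 2.94% and 3.25% in FF, 1.45-fold without overlap. The other inputs and SMARTer overlapped, at 0.994-fold to 1.16-fold.

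In Ovation, Gm26917 was lower at low RNA input. In BC57 FFPE RNA its shares were 1.19%, 1.13% and 0.982% at 50 pg, 1.18%, 1.19% and 1.12% at 250 pg and 1.56%, 1.53% and 1.56% at 2 ng. In urothelium FFPE RNA they were 0.551%, 0.540% and 0.504% at 50 pg, 0.591%, 0.578% and 0.510% at 250 pg and 0.721%, 0.698% and 0.658% at 2 ng. Across the 8 comparisons of a low input with 2 ng, Gm26917 was 0.627-fold to 0.834-fold and lower without overlap in 7, where 9.43% of genes were lower in that way and 4.39% higher. The overlapping one was urothelium FF at 50 pg.

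Gm23935 was lower at low input in the 4 Ovation FFPE comparisons, 0.594-fold to 0.761-fold, and overlapped in the 4 FF ones. Gm42418 was lower in 3 of the 8, all FFPE, and higher in 1, BC57 FF at 50 pg, where 3.28%, 3.29% and 3.94% stood against 1.99%, 2.94% and 3.25% at 2 ng. Beside these counts, 9.43% of genes were lower and 4.39% higher without overlap over the 8 comparisons. In SMARTer none of the 3 genes separated 250 pg from 2 ng in any of 4 comparisons. Few genes of any kind did so there, with 3.37% higher and 6.26% lower without overlap at 250 pg. The SMARTer ratios were 0.813-fold to 1.05-fold for Gm42418, 0.964-fold to 1.01-fold for Gm26917 and 0.918-fold to 1.03-fold for Gm23935. Without the first urothelium FFPE library of 250 pg or of 2 ng, the Gm42418 ratio of that comparison, 1.05-fold with all, was 0.629-fold or 1.76-fold, with overlap.

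Ordered by mean share over all 22 groups, Gm26917 split by cell sample. The lowest group was urothelium in poly(A), at 0.000565% ± 3.76e-05 (SD, n = 3), followed by BC57 in poly(A) at 0.00484% ± 0.000129. Then came all 10 urothelium groups of the total RNA kits, with means of 0.149% to 0.692%, and above them all 10 BC57 groups, with means of 0.825% to 1.59%. Gm23935 split by kit, with poly(A) means of 0.0552% and 0.109%, Ovation means of 0.165% to 0.373% and SMARTer means of 5.18% to 12.2%. Gm42418 showed a narrow order above poly(A), with means of 2.55% to 6.35%. Neighbouring groups in these orders did not overlap in 6 of 21 pairs for Gm26917, 2 of 21 for Gm42418 and 6 of 21 for Gm23935. Each order was set by the gene's own means. No share over all genes was worked out for these pairs, so the counts do not set the 3 genes apart from others. Without the third urothelium SMARTer FFPE libraries these were 6, 1 and 6 of 21, and the SMARTer means of Gm23935 began at 6.78%. The SMARTer means of Gm42418 then began at 3.96%, above the highest Ovation mean of 3.95%, although the libraries of these groups overlapped.

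The genes most like Gm42418 over the 22 group means of log2(CPM + 1), by Pearson correlation among 13104 genes, were Rpl10-ps3 (r = 0.98), Gm15427 (0.96), Gm8129 (0.96), Gm9843 (0.96) and Rpl31-ps8 (0.96). Rpl10-ps3 is annotated as protein coding and the others as processed pseudogenes. Those most like Gm26917 were Gm6863 (0.95), Rpl10-ps3 (0.94), Rpl39-ps (0.93), ENSMUSG00000045999 (0.93) and Map3k20 (0.92), a stress-activated kinase gene. Those most like Gm23935 were its copy Gm24270 (0.99), Mir692-2 (0.98), Gm12481 (0.97), Ftl2-ps (0.97) and its copy Gm24245 (0.97). Gm42418 and Gm26917 had r = 0.90 with each other, whereas Gm23935 had r = 0.52 with Gm42418 and 0.42 with Gm26917. These points share kit, depth and cell sample, and the values are a description.

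Genes annotated as rRNA in the deposited count tables held far fewer counts than the 3 genes together. The tables lack CT010467.1, the rRNA gene that overlaps Gm42418, so its reads are not part of this comparison. The 146 rRNA genes with at least 10 counts summed to 0.000455% to 0.0685% of counts in SMARTer (median 0.00873%), 0.00569% to 0.578% in Ovation (median 0.208%) and 0.000172% to 0.000842% in poly(A) (median 0.000429%). The Ovation median of this sum was close to that of Gm23935 alone, 0.209%. In Ovation most of this sum came from Gm25018 and n-R5s124, 119-base genes on chromosome 8 with equal medians of 0.0985% each. In SMARTer both had a median of 0, and n-R5s193 had 0.00554%. Gm25018 and n-R5s124 are listed with the same lowest, median and highest share in each kit, so the split of reads between them is uncertain. Their order of kits is unlike that of Gm23935, which was highest in SMARTer.

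The median shares of mitochondrial rRNA were highest in SMARTer and lowest in poly(A), the order that the medians of all 3 genes had. The small-subunit gene mt-Rnr1 took 1.56% to 5.81% of counts in SMARTer (median 3.95%), 0.367% to 2.23% in Ovation (median 1.37%) and 0.0197% to 0.0280% in poly(A). The large-subunit gene mt-Rnr2 took 1.6% to 6.39% (median 4.60%), 0.986% to 4.38% (median 2.65%) and 0.0273% to 0.0478%.

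Between BC57 and urothelium in FF RNA, mt-Rnr1 was lower in BC57 in Ovation, by a log2 fold change of -1.27 ± 0.07 (SE; edgeR quasi-likelihood test, adjusted p = 5.8e-19), and in SMARTer, by -1.14 ± 0.07 (adjusted p = 2.8e-12). In poly(A) it was higher, by 0.47 ± 0.06 (edgeR, adjusted p = 3.9e-07). mt-Rnr2 had log2 fold changes of -1.06, -0.87 and 0.68 in the same order of kits, each past the threshold. FFPE RNA held more of both in Ovation at 2 ng. In BC57, mt-Rnr1 averaged 15460 ± 402 TMM-scaled CPM in FFPE and 3963 ± 459 in FF (SD, n = 3 each), a log2 fold change of 1.96 ± 0.06 (edgeR, adjusted p = 5.0e-24). In urothelium it averaged 15017 ± 423 in FFPE and 9606 ± 528 in FF (SD, n = 3 each), 0.64 ± 0.04 (edgeR, adjusted p = 8.8e-19). Here and in the list comparisons below, SE and adjusted p values rest on the spread between repeat libraries, which may be technical.

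Most genes of the machinery that makes ribosomal RNA were higher in BC57 than in urothelium. Of 16 genes of the RNA polymerase I machinery (subunits, initiation factors and Tcof1), 12 were higher and 3 lower in poly(A) libraries, where 42.8% of all tested genes were higher and 48.5% lower (edgeR quasi-likelihood test, Benjamini-Hochberg adjusted p under 0.05). In Ovation at 2 ng FF, 11 were higher and 1 lower, beside 37.6% and 41.4% of all genes. In SMARTer at 2 ng FF, 11 were higher and 2 lower, beside 36.3% and 41.2%. The median log2 fold change of the list was 1.41 in poly(A), 1.41 in Ovation and 1.13 in SMARTer, and that of all tested genes -0.12, -0.06 and -0.09.

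Tcof1, the treacle protein that binds RNA polymerase I in the nucleolus, had the largest change of the list in all 3 kits. In poly(A) its level was 216, 212 and 210 TMM-scaled CPM, the unit of all list levels here, in BC57 against 24.5, 27.1 and 28.3 CPM in urothelium, a log2 fold change of 2.99 ± 0.05 (SE; edgeR, adjusted p = 2.1e-22). In Ovation it was 133, 142 and 145 CPM against 25.6, 23.7 and 18.9, 2.63 ± 0.13 (edgeR, adjusted p = 1.8e-20). In SMARTer it was 229, 252 and 249 CPM against 48.1, 35.5 and 41.8, 2.54 ± 0.10 (edgeR, adjusted p = 5.8e-16). Every BC57 library was above every urothelium library in each kit, but libraries without overlap were a condition for naming the gene.

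Polr1a, the largest subunit of RNA polymerase I, had log2 fold changes of 2.34 in poly(A), 1.82 in Ovation and 2.02 in SMARTer. Rrn3, the initiation factor that joins the polymerase to the promoter, had 1.75 ± 0.09 in Ovation and 1.82 ± 0.10 in SMARTer (SE), at 225, 214 and 245 CPM in BC57 against 73.4, 60.2 and 69.4 CPM in urothelium in Ovation. Polr1b, the second-largest subunit, had 1.81 in poly(A) and 1.91 in SMARTer, and Taf1d, a subunit of the promoter selectivity complex, 1.88 in poly(A) and 1.74 in Ovation. The lower genes were Taf1a in all 3 kits (-0.74 in poly(A), -0.96 in Ovation, -0.60 in SMARTer), Ttf1 in poly(A) (-0.34) and SMARTer (-0.64), and Taf1c in poly(A) (-0.46), named after their values were seen. Taf1a and Taf1c are further subunits of the selectivity complex, and Ttf1 is the termination factor.

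Of 81 genes for rRNA processing and ribosome assembly, 79 were higher and 2 lower in BC57 in poly(A), beside 42.8% and 48.5% of all tested genes. In Ovation 71 were higher and 2 lower, beside 37.6% and 41.4%, and in SMARTer 72 were higher and 1 lower, beside 36.3% and 41.2%. The list medians were 1.74, 1.68 and 1.71 on the log2 scale, and those of all tested genes -0.12, -0.06 and -0.09. Lyar, a nucleolar protein of pre-rRNA processing, was at 144, 144 and 138 CPM in BC57 against 14, 14.4 and 14.7 CPM in urothelium in poly(A), a log2 fold change of 3.30 ± 0.05 (SE; edgeR, adjusted p = 5.6e-23). It had 3.33 in Ovation and 3.06 in SMARTer. Nop56, a core protein of box C/D snoRNPs, had 2.90 in poly(A), 2.77 in Ovation and 3.09 in SMARTer.

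Nolc1, a nucleolar chaperone of snoRNPs, had 2.98 in poly(A) and 2.91 in SMARTer, and Mybbp1a, a nucleolar protein, 2.98 in poly(A). Nhp2, a protein of box H/ACA snoRNPs, had 3.15 in Ovation. Noc4l, a ribosome assembly factor, had 3.07 in Ovation and 3.12 in SMARTer. The lower genes, named after their values were seen, were the RNA exosome genes Exosc10 in all 3 kits (-0.38 in poly(A), -0.54 in Ovation, -0.57 in SMARTer) and Exosc5 in poly(A) (-0.15) and Ovation (-0.64).

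After fixation these genes were mostly lower or not past the threshold. In BC57 at 2 ng in Ovation, 0 of 16 RNA polymerase I genes were higher and 4 lower in FFPE, and 2 of 81 processing genes were higher and 50 lower, where 16.6% of all tested genes were higher and 15.6% lower. The list medians were -0.15 and -0.41, that of all tested genes 0.00. The 4 lower polymerase genes were Ubtf (-0.76), Polr1e (-0.45), Rrn3 (-0.41) and Tcof1 (-0.35). Ubtf, the upstream binding factor of the ribosomal promoter, was at 61.6, 52.8 and 62.6 CPM in FFPE against 111, 103 and 86.8 CPM in FF (edgeR, adjusted p = 1.4e-06). Polr1e had an adjusted p of 0.046 in edgeR and of 0.19 in DESeq2, and 0.054 with no filter on low counts.

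Ncl, nucleolin, was at 871, 824 and 891 CPM in BC57 FFPE against 1564, 1626 and 1818 CPM in BC57 FF, a log2 fold change of -0.95 ± 0.06 (SE; edgeR, adjusted p = 4.6e-15). Npm1, nucleophosmin, was at 1313, 1313 and 1310 CPM against 2252, 2254 and 2390, -0.81 ± 0.05 (edgeR, adjusted p = 1.1e-14). Utp3, a small-subunit processome protein, had -0.90. The 2 higher genes were Mdn1, a very large AAA ATPase of large-subunit assembly, at 1.13 ± 0.08, and Nop10 at 0.43, the second named after its value was seen. Mdn1 was at 235, 254 and 226 CPM in FFPE against 106, 101 and 119 CPM in FF.

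In urothelium at 2 ng in Ovation, 0 of 15 RNA polymerase I genes were higher and 6 lower in FFPE, and 1 of 81 processing genes was higher and 38 lower, where 19.3% of all tested genes were higher and 17.9% lower. The list medians were both -0.50 and that of all tested genes 0.00. Ncl was at 131, 147 and 160 CPM in FFPE against 379, 359 and 379 CPM in FF, -1.35 ± 0.08 (SE; edgeR, adjusted p = 2.6e-22). Mybbp1a had -1.30, Exosc5 -1.21 and Nolc1 -1.17. Taf1d had -0.96 and Polr1a -0.77. Tcof1 (-0.67, adjusted p = 0.021 in edgeR) and Twistnb, a polymerase subunit (-0.61, adjusted p = 0.037), had adjusted p values of 0.051 and 0.080 in DESeq2. The higher gene was Mdn1, at 0.44 ± 0.10, named after its value was seen.

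The third urothelium SMARTer FFPE libraries enter none of these list comparisons. Whether the changes of the list genes and the shares of the 3 genes are related was not tested.

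**Figure D5:**
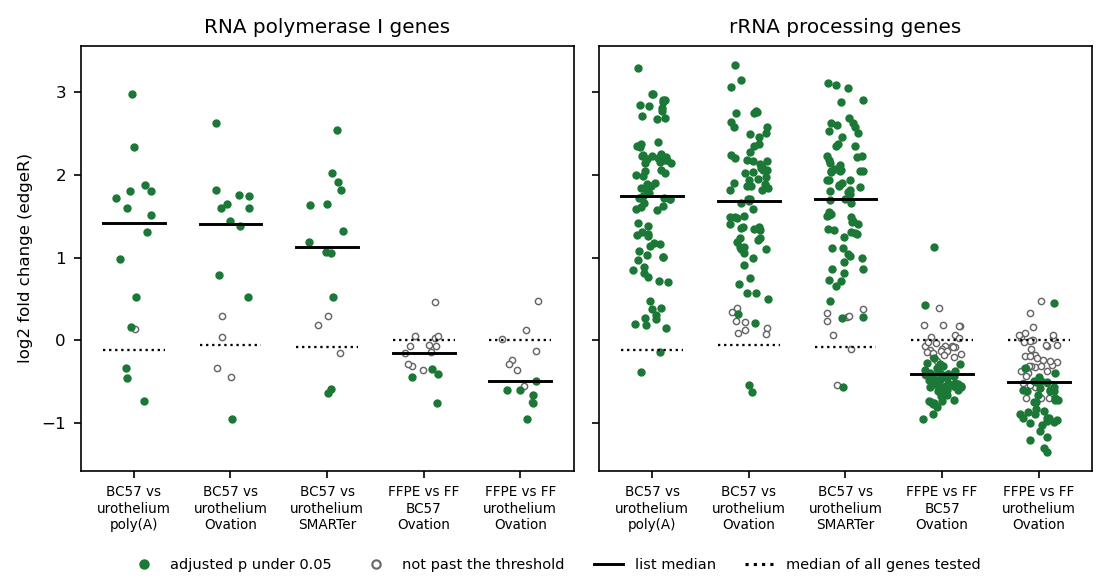
Log2 fold change of each gene of the RNA polymerase I list (16 genes) and the rRNA processing list (81 genes) in 5 comparisons, with called genes filled, the list median as a solid line and the median of all tested genes as a dotted line. BC57 against urothelium has list medians of 1.13 to 1.74, and FFPE against FF has list medians of -0.15 to -0.50.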

How the data were processed

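RNA-seq counts per gene of 66 libraries were used as the authors deposited them. The deposited log2 table was used as an alternative and holds log2(scaled counts + 1), with the upper quartile of non-zero counts scaled to 1000. STAR, SAMtools, featureCounts and mm10 are named in the submitters' processing notes. For the annotation, the strand setting and the handling of reads that match several loci, nothing is stated there. Symbols were matched for 37693 of 39179 genes. A share is a gene's counts over all gene counts of the library. Per-length values divide by exonic length. Lists were tested with edgeR 4.0.16 (quasi-likelihood, TMM, filterByExpr, Benjamini-Hochberg adjustment over all genes tested, threshold 0.05) on R 4.3.3, with the 6 libraries of 2 groups in each fit, and list levels are TMM-scaled CPM. DESeq2 1.42.0, no filter, other scaling, leaving out a library and a replicate block were tried. In each of 3 simulated data sets 200 of 200 changed genes were recovered. False calls were 13 among 17934 genes for poly(A), 4 among 13018 for Ovation FF and 12 among 12127 for BC57 FFPE against FF. Recovery by size of change was not tested. Recovery with as many changed genes as the poly(A) fit called, 7672 higher and 8698 lower, was not tested either. The SMARTer comparison and that of urothelium FFPE with FF had no simulated set. Named list genes were up to 4 called genes of each list with the largest change, among those whose libraries did not overlap between the groups. The 3 genes and the lists were chosen with earlier results of these data known. Comparisons within runs of library codes, without the third urothelium SMARTer FFPE libraries and without each single library of a group were added after the data had been seen. For the pairs within runs of library codes no share over all genes was worked out. Sequence matches used blastn 2.17.0.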

Additional observations from a re-analysis of the deposited data

Results flagged for a closer look

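The direction of Gm42418 between FFPE and FF RNA in Ovation at 2 ng was opposite in the cell samples. The log2 ratio of mean shares was 0.53 in BC57, where all 3 FFPE libraries were above the FF libraries, and -0.24 in urothelium, where all 3 FFPE libraries were below them. The difference between these ratios was not tested. The BC57 FF group includes the first library, whose Gm42418 share of 1.99% was the lowest of the Ovation libraries.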

How the results depend on the processing

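Each list and all-gene count of calls stayed within 1.5 times of its value under every edgeR or DESeq2 alternative tried (165 of 165 values), and 18 of 550 values of named list genes lost their call, all of Polr1e in BC57 or of Tcof1 and Twistnb in urothelium. Of 216 median log2 share ratios under alternatives, 190 moved by less than the spread between libraries, as did 738 of 846 log2 share ratios of single comparisons, while 108 moved further and none of those without overlap turned direction. On the deposited log2 values, Gm42418 medians became 0.39 for FFPE in Ovation BC57, -0.17 for FFPE in Ovation urothelium, 0.89 for SMARTer against Ovation, and -0.35 (Ovation) and -0.56 (SMARTer) for low input. Gm26917 medians became 0.66 for FFPE in Ovation BC57, 1.99 for FFPE in Ovation urothelium, 0.58 for SMARTer against Ovation, -0.68 (Ovation) and -0.47 (SMARTer) for low input, and 8.06 (Ovation) and 8.88 (SMARTer) against poly(A). The Gm26917 median for FFPE in SMARTer BC57 turned to 0.020, against -0.10 in shares. Gm23935 medians became 0.69 for FFPE in Ovation BC57, 0.21 for FFPE in Ovation urothelium, -0.57 (Ovation) and -0.53 (SMARTer) for low input, and 7.61 for SMARTer against poly(A). With counts outside the 3 genes as denominator, Gm26917 was 0.53 for SMARTer against Ovation and 8.87 for SMARTer against poly(A), and Gm23935 7.58 for the second. With group medians, Gm23935 for FFPE in Ovation urothelium was -0.037. Leaving out 1 replicate number at a time gave -0.44 to -0.26 for Gm42418 and -0.10 to 0.17 for Gm23935 in FFPE Ovation urothelium, and -0.32 to 0.99 for Gm42418 between BC57 and urothelium in poly(A), where the third libraries gave the change of sign. The cause of these moves was not tested. With the replicate number as a block, 16288 genes were called in poly(A), 10283 in Ovation and 11200 in SMARTer between BC57 and urothelium, and 4085 in BC57 and 5093 in urothelium between FFPE and FF. Deviations of same-numbered libraries from their group means had correlations of -0.025 to 0.11. In SMARTer at 2 ng FF, where same-numbered libraries lie in the same run of codes, they were 0.0883, 0.0624 and 0.109. With 3 libraries per group these values cannot decide whether the numbers pair the libraries, and the labels state no pairing. In poly(A) the 97 Gm26917 counts of the lowest library limit its precision.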
